A study of Mus musculus with 16 samples.

Results

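The absorptive lineage transcription factors described here are 9 genes, Hnf4a, Hnf4g, Cdx1, Cdx2, Gata6, Creb3l3, Vdr, Klf5 and Prdm1, which were chosen by name for their known roles in intestinal differentiation. Earlier results of these data were known when the 9 genes were chosen. All 9 of the 45513 genes in the deposited counts were found, and all 9 were among the 15841 genes with enough counts to be tested. RNA sequencing was carried out on 16 colon samples from 8 Atoh1(WT)CreERT2; Rosa26tdTom/+ mice, with one tdTom+ and one tdTom− sample of EpCAM+ live cells from each mouse, so that each population held 8 samples. The comparison asks how cells labelled through Atoh1 activity around the time of tamoxifen treatment differ from the unlabelled cells of the same epithelium.

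All mice carried the knock-in allele that places a tamoxifen-inducible Cre recombinase downstream of the wild-type Atoh1 coding sequence at its own locus, together with a Rosa26 tdTomato reporter, on a C57BL/6 background, and the study used males and females of 8 to 16 weeks. Both populations were therefore from tamoxifen-treated mice of the same genotype. The labels give 1 mg of tamoxifen daily for 3 days, as do the study's methods on animal treatment for this comparison, whereas its methods on RNA sequencing describe a larger single injection with collection a day later. Because Cre is made only where Atoh1 is active, tdTom+ cells were Atoh1-expressing secretory cells and cells recently derived from them, and tdTom− cells were every other EpCAM+ cell of the crypt-enriched fractions, since the first fraction released from the tissue was discarded before sorting. Small intestinal samples are not analysed here.

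Absorptive and secretory cells arise from common crypt progenitors. ATOH1 commits a cell to the secretory fate, and Notch signalling through HES1 represses Atoh1 in cells that become absorptive. In the absorptive branch, the caudal homeobox factors CDX1 and CDX2 set intestinal identity, the nuclear receptors HNF4A and HNF4G switch on brush border and lipid genes, and GATA6, the vitamin D receptor, the membrane-bound factor CREB3L3, the Kruppel-like factor KLF5 and the repressor PRDM1 act in crypt growth, mineral transport, lipid handling and maturation.

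Total counts per sample ran from 16482530 to 24218367 in tdTom+ cells and from 18318172 to 45791503 in tdTom− cells, and mouse 4 gave the largest, from tdTom− cells. A floor of 3 counts corresponded to 0.0655 to 0.182 counts per 1e6 of these unscaled totals, which covers counting error only. Levels are given as counts per 1e6 (CPM) with library sizes scaled by TMM. The sort was checked on marker genes. All 8 goblet and secretory markers, Atoh1 and Muc2 among them, were higher in tdTom+ cells, with tdTom− levels that were 4.09% to 8.47% of those in tdTom+ cells. All 6 absorptive colonocyte markers were lower, with tdTom+ levels at 2.77% (Aqp8, a water channel) to 10.2% (Krt20, a surface keratin) of those in tdTom− cells. The tdTom− cells were not purely absorptive: all 5 enteroendocrine markers, 2 of 3 tuft markers tested and all 4 stem cell markers were also higher there, and the 3 epithelial markers were lower in tdTom+ cells, by 0.20 on the log2 scale for Epcam and by 1.08 for Krt8. Of the 3 cycling markers, Ccnb2 was lower in tdTom+ cells, and all 3 were lower with the mouse as a block. The mitochondrial share of counts was also higher in tdTom− cells of all 8 mice, at 3.74% to 9.97% against 2.23% to 6.92%. The part of these in the results was not tested. In bulk samples, fewer cells that express a gene and less RNA of it per cell cannot be told apart.

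Of the 9 factors, 6 were lower in tdTom+ cells, none was higher and 3 did not pass the test. Genes called lower made up 25.5% of all genes tested and genes called higher another 25.5%, so a call by itself was common in this comparison. The differences covered a wide range. Creb3l3 was 41.7-fold lower and Prdm1 8.03-fold lower, Vdr, Hnf4a, Hnf4g and Cdx2 were lower by between 1.57-fold and 2.47-fold, and Cdx1, Gata6 and Klf5 were at 95.9% to 105% of their tdTom− level. The same 6 factors were lower in 8 of 8 mice, a pattern seen in 26% of all genes tested. The CPM values of 4 factors, Creb3l3, Prdm1, Vdr and Hnf4a, did not overlap between the populations, which held for 15.3% of all genes tested in that direction. The same 4 were lower by over 1 on the log2 scale, as were 9.16% of all genes tested, and Creb3l3 and Prdm1 were lower by over 3, as were 1.36%. In each tdTom+ sample Creb3l3 had only 2 to 7 counts and Prdm1 2 to 9. Both had enough counts to be tested only through the tdTom− samples, where they were high, so a large fall was favoured in advance. The median log2 fold change (tdTom+ against tdTom−) was −0.74 over the 9 factors and 0.0039 over all genes tested. Calls are from edgeR's quasi-likelihood test at a Benjamini-Hochberg adjusted p of 0.01 over all genes tested. The count of factors higher in tdTom+ cells was also 0 at an unadjusted p of 0.05 in edgeR, and 0 with DESeq2 and with limma-voom.

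**Figure D1:**
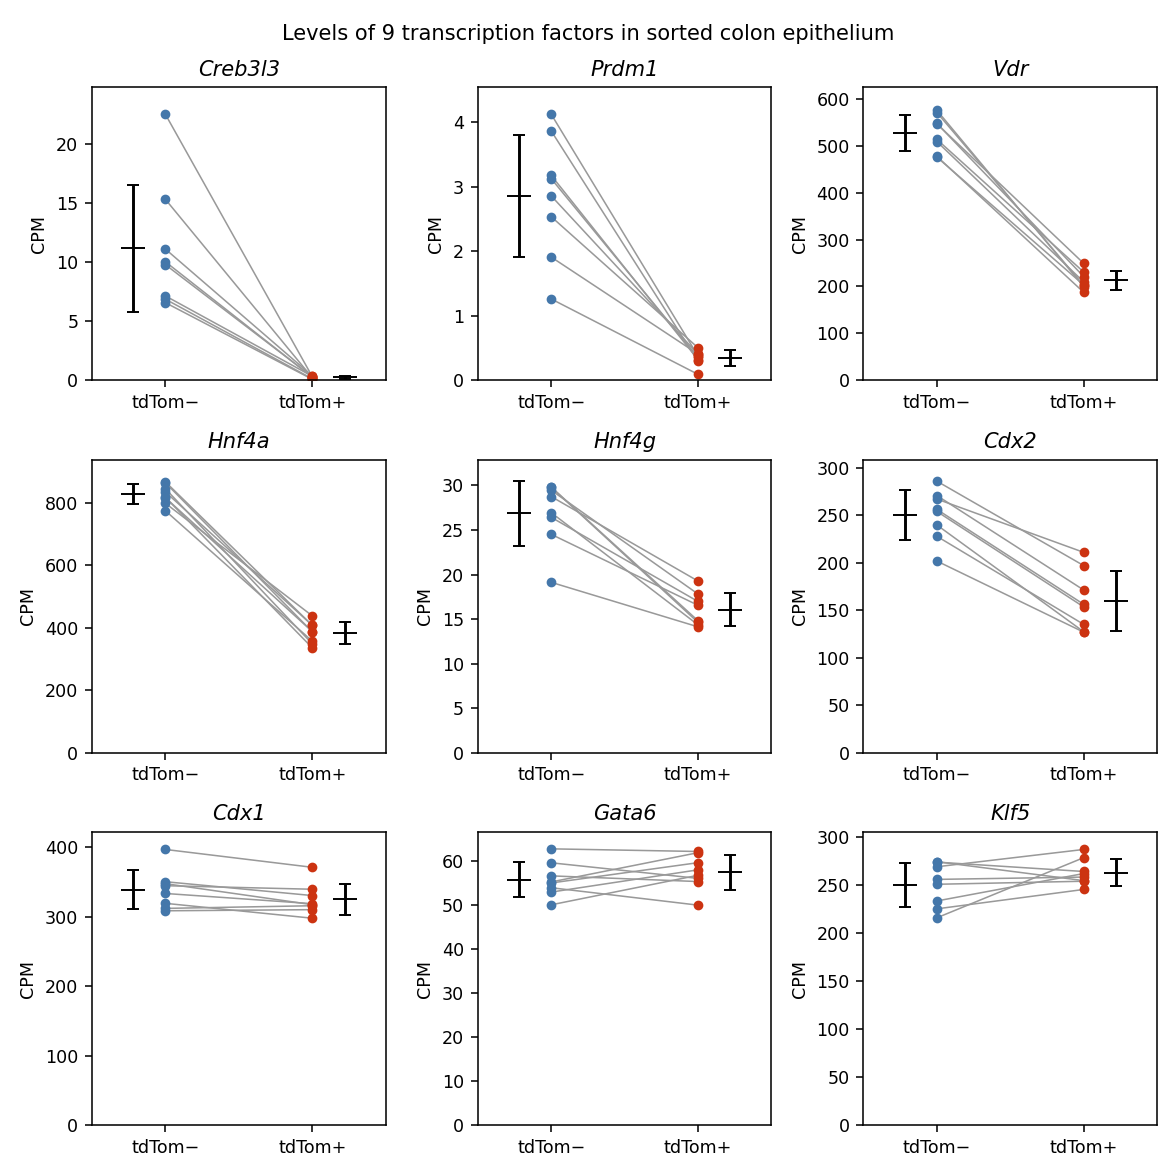
Levels of the 9 factors in CPM (vertical axes, linear, from 0) in tdTom− (blue) and tdTom+ (red) samples, with a line for each of 8 mice and bars for the mean ± SD of each population. Every line falls for Creb3l3, Prdm1, Vdr, Hnf4a, Hnf4g and Cdx2, whereas lines run in both directions for Cdx1, Gata6 and Klf5.

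Creb3l3 (ENSMUSG00000035041, chromosome 10, 81084324 to 81098874, minus strand, GRCm38) encodes a bZIP factor anchored in the endoplasmic reticulum, which is freed by proteolysis in the Golgi and activates apolipoprotein and lipid genes in liver and enterocytes. It had 122 to 415 counts in each tdTom− sample and 2 to 7 counts in each tdTom+ sample, or 1957 against 40 counts in all. In tdTom− cells of mice 1 to 8 its levels were 15.3, 22.5, 11.1, 6.88, 6.58, 9.80, 7.16 and 10.04 CPM, and in tdTom+ cells they were 0.225, 0.325, 0.388, 0.143, 0.102, 0.308, 0.359 and 0.277 CPM. The populations were thus far apart in every mouse, and the highest tdTom− values were those of mice 1 to 3, each above all of mice 4 to 8. The log2 fold change was −5.38 (SE 0.32, 95% interval −6.06 to −4.71, adjusted p = 8.78e-12 by edgeR's quasi-likelihood test), and 0.0253% of all genes tested had a lower one. Mean levels were 11.2 ± 5.41 CPM in tdTom− cells and 0.266 ± 0.102 CPM in tdTom+ cells (SD, n = 8), so that the spread among tdTom− samples, at 48.4% of their mean, was the widest of the 9 factors in that population. The tdTom+ level was 2.40% of the tdTom− level (95% interval 1.499% to 3.83%), below the range of the colonocyte markers, 2.77% to 10.2%, although its interval reaches into that range. Which cells gave the 40 tdTom+ counts was not tested.

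The mouse numbers in the labels fall into series that may mark batches, mice 1 to 3, mouse 4 and mice 5 to 8. Within mice 1 to 3 the log2 fold change of Creb3l3 was −5.68, and within mice 5 to 8 it was −4.99, both past the threshold. Mouse 4 alone gave a within-mouse log2 ratio of −4.88, computed with a prior count of 2. That prior count shrinks ratios of few counts towards 0, so this value cannot be ranked beside the fitted ones. Without a prior count, the ratio of CPM in mouse 4 was 0.0208, within the 0.0144 to 0.0501 of the other mice.

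Among the factors with a promoter examined, Creb3l3 had the single promoter with the most different motifs of those searched. RefSeq promoters (GRCm38.p6, 250 bases before to 50 bases after a transcription start) were at hand for 5 of the factors, as 7 promoters, with none for Hnf4g and Klf5 and none examined for Cdx1 and Gata6. Both strands were searched for CAAAGTC, the HNF4-specific part of the site bound by HNF4, and for AGATAA, which zinc finger factors such as GATA6 read. The search also covered TTTATG for the caudal homeobox factors, AGGTCA for nuclear receptors such as VDR, TGACGT for factors of the CREB type, CCACCC for Kruppel-like factors and GTGAAAG for PRDM1. Creb3l3 has a pair of RefSeq starts. One, at 81098872, lies at the edge of the deposited gene interval, and its promoter held no match to any motif searched. The windows printed for Creb3l3 come from the other start, at 81092591. They are shown because they carry letters read by other factors of this group, with the motif in capitals, 5′ to 3′ on the gene's strand.

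Creb3l3, HNF4 motif on the opposite strand, 178 bases before the start, chr10:81092751-81092780, minus strand: ccgacaccccaGACTTTGctctttgctccc

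Creb3l3, GATA motif, 138 bases before the start, chr10:81092712-81092741, minus strand: cacaaaacagaaAGATAAcagtcgtcccac

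Hnf4a, GATA motif, 52 bases before the start, chr2:163506793-163506822, plus strand: gaagaatcaataAGATAAccgggcggggtg

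CAAAGTC was present in 1 of the 7 promoters, that of Creb3l3, and in 4.44% of 32851 RefSeq promoters of the same length. AGATAA was present in 2 of 7, one each of Creb3l3 and Hnf4a, and in 11.2% of all promoters. The same Creb3l3 promoter also held AGGTCA, which was found in 1 of 7 and in 16.3% of all promoters, and CCACCC, found in 4 of 7 and in 31.5% of all. The CDX, CREB-type and PRDM1 motifs had no match in the 7 promoters, and 11.9%, 7.51% and 4.24% of all promoters held them. These matches describe the letters only, and the deposited counts are totals per gene, which do not show which start was used.

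The other members of the CREB3 family, which share the membrane anchor and the proteolytic release, went the opposite way. Creb3, Creb3l1, Creb3l2 and Creb3l4 were all higher in tdTom+ cells, in 8 of 8 mice each, with log2 fold changes of 0.73 for Creb3 (adjusted p = 3.3e-11), 2.09 for Creb3l1 (adjusted p = 1.78e-13), 0.87 for Creb3l2 (adjusted p = 6.33e-06) and 3.996 for Creb3l4 (adjusted p = 6.1e-16, all by edgeR). Genes called higher made up 25.5% of all genes tested. Per kilobase of exon, Creb3l4 was at 6.69 ± 1.78 CPM in tdTom− cells and at 106 ± 7.71 CPM in tdTom+ cells (SD, n = 8). Creb3l3 made up 3.77% ± 2.25 of the summed per-length level of the family in tdTom− cells and 0.0201% ± 0.00889 in tdTom+ cells, and Creb3l1 was the most abundant member on this scale in both populations, at 72.1% ± 4.24 and 69.7% ± 2.52. Of the proteases that release these factors, Mbtps1 (site-1 protease) was slightly higher in tdTom+ cells, by 0.21 on the log2 scale (adjusted p = 0.00386), and Mbtps2 (site-2 protease) did not pass the test, at 0.05 (adjusted p = 0.591).

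**Figure D2:**
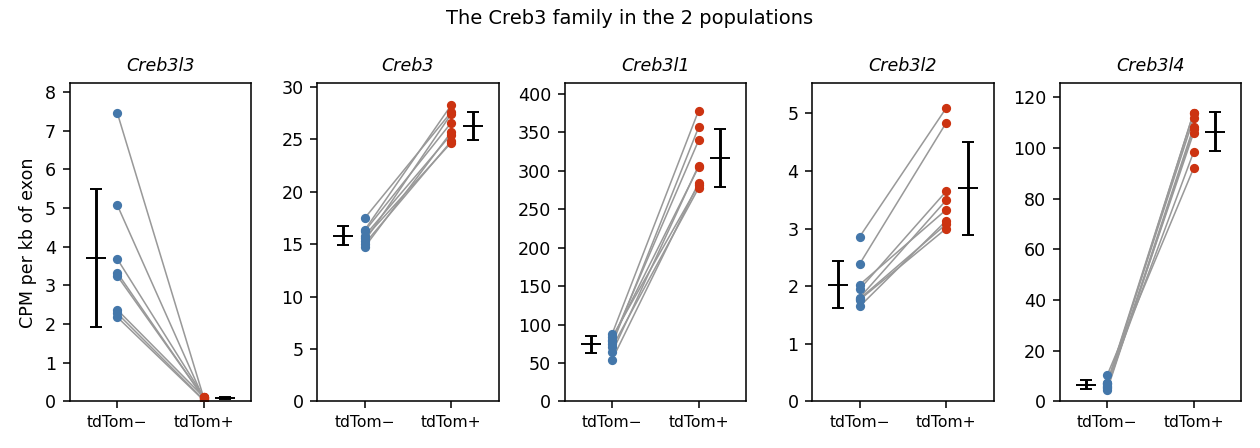
Levels of the 5 CREB3 family genes in CPM per kilobase of exon (vertical axes, linear, from 0), drawn for each of 8 mice in tdTom− (blue) and tdTom+ (red) cells with mean ± SD. Creb3l3 falls in every mouse, and the other 4 genes rise in every mouse.

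Hnf4a (ENSMUSG00000017950, chromosome 2, 163506808 to 163572910, plus strand) is a nuclear receptor that is required for the enterocyte programme and is made throughout the crypt. Its levels in tdTom− cells of mice 1 to 8 were 774, 816, 844, 797, 866, 834, 815 and 863 CPM, and in tdTom+ cells they were 357, 336, 348, 438, 407, 408, 388 and 387 CPM. No tdTom+ sample came near the lowest tdTom− sample. Hnf4a fell by 1.11 on the log2 scale (SE 0.06, adjusted p = 3.5e-12 by edgeR's quasi-likelihood test), and its tdTom+ level was 46.4% of the tdTom− level (95% interval 42.4% to 50.9%). Among the tdTom− samples it had the smallest spread of the 9 factors, at 3.86% of the mean. Hnf4aos, a gene on the opposite strand of the same interval, had 8 counts in all, and counting was strand-specific.

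Hnf4g (ENSMUSG00000017688, chromosome 3, 3508030 to 3658052, plus strand), the paralog that acts with HNF4A on brush border genes, was expressed at a lower level. It ranged from 19.1 to 29.8 CPM in tdTom− cells, with a median of 27.9 CPM, and from 14.1 to 19.3 CPM in tdTom+ cells, with a median of 15.7 CPM. The ranges met only between the lowest tdTom− sample, that of mouse 1, and the highest tdTom+ sample, that of mouse 8, and within each mouse tdTom+ was the lower. The log2 fold change was −0.74 (SE 0.09, adjusted p = 5.09e-07 by edgeR), so the tdTom+ level was 60.0% of the tdTom− level.

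The fall was larger for Hnf4a than for Hnf4g. The ratio of Hnf4g to Hnf4a per kilobase of exon was 0.0770 ± 0.00693 in tdTom+ cells and 0.0596 ± 0.00715 in tdTom− cells (SD, n = 8), and the within-mouse log2 ratios of the genes differed by 0.38 ± 0.20 (SD), in the same direction in 8 of 8 mice. This difference had p = 0.0078 in a two-sided exact permutation test that exchanged the populations within mice, the smallest value that 8 mice allow, and an adjusted p = 0.0104 over the 4 gene pairs compared in this way. A ratio of 2 genes within a library does not depend on how libraries are scaled.

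Cdx2 (ENSMUSG00000029646, chromosome 5, 147300805 to 147307270, minus strand) and Cdx1 (ENSMUSG00000024619, chromosome 18, 61018862 to 61036199, minus strand) encode related homeobox factors, of which CDX2 is needed to keep intestinal identity and CDX1 is most abundant in the crypt. Cdx2 was at 267, 256, 240, 286, 202, 271, 228 and 254 CPM in tdTom− cells of mice 1 to 8 and at 211, 156, 127, 197, 127, 171, 135 and 154 CPM in tdTom+ cells. It was lower in tdTom+ cells of every mouse, although the tdTom+ sample of mouse 1 exceeded the tdTom− sample of mouse 5. The log2 fold change was −0.65 (SE 0.10, 95% interval −0.86 to −0.43, adjusted p = 1.56e-05 by edgeR's quasi-likelihood test).

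Cdx1 ranged from 309 to 397 CPM in tdTom− cells (median 339) and from 298 to 371 CPM in tdTom+ cells (median 318). The ranges overlapped almost entirely, with the tdTom+ sample the higher in 2 mice and the lower in 6. Its log2 fold change of −0.06 did not pass the test (adjusted p = 0.41 by edgeR), and the 95% interval, from −0.19 to 0.07, covers small differences in either direction. The paralogs therefore differed from each other: the log2 ratio of Cdx1 exceeded that of Cdx2 by 0.60 ± 0.15 (SD) and did so in 8 of 8 mice (exact permutation test, p = 0.0078, adjusted p = 0.0104). The per-length ratio of Cdx1 to Cdx2 was 2.71 ± 0.473 in tdTom+ cells and 1.77 ± 0.244 in tdTom− cells.

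Gata6 (ENSMUSG00000005836, chromosome 18, 11052510 to 11085635, plus strand), a zinc finger factor of crypt cells and the main GATA factor of the colon, was at 49.99 to 62.7 CPM in tdTom− cells (median 55.1) and at 49.9 to 62.1 CPM in tdTom+ cells (median 57.3). The populations occupied the same range, and tdTom+ was higher in 4 mice and lower in 4. The log2 fold change was 0.04 (95% interval −0.07 to 0.16, adjusted p = 0.518 by edgeR). Its relatives were scarce, and Gata4 had enough counts to be tested only through the tdTom− samples, so a fall was favoured in advance. Gata4, which acts in the proximal small intestine, was at 0.253 ± 0.170 CPM in tdTom+ cells and 1.18 ± 0.523 CPM in tdTom− cells, a log2 fold change of −2.16 (adjusted p = 3.41e-05). Gata5 was at 0.935 and 1.27 CPM and did not pass (adjusted p = 0.0835). The noncoding gene 1010001N08Rik overlaps the Gata6 start on the opposite strand. It had 966 counts in all and a log2 fold change of −0.16 that did not pass (adjusted p = 0.36).

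Vdr (ENSMUSG00000022479, chromosome 15, 97854425 to 97910630, minus strand) encodes the vitamin D receptor, which pairs with a retinoid X receptor and drives calcium uptake genes. Its levels in mice 1 to 8 were 575, 570, 508, 546, 513, 475, 547 and 477 CPM in tdTom− cells and 200, 202, 210, 249, 231, 203, 221 and 188 CPM in tdTom+ cells. Every tdTom+ sample lay below every tdTom− sample by a wide margin. Vdr fell by 1.31 on the log2 scale (SE 0.07, adjusted p = 7.52e-13 by edgeR's quasi-likelihood test), to 40.5% of the tdTom− level.

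Rxra, the partner of VDR with the larger difference, fell by 1.15 (adjusted p = 2.17e-12), from 118 ± 6.26 to 52.8 ± 5.997 CPM (SD, n = 8). Rxrb was slightly higher in tdTom+ cells, by 0.16 (adjusted p = 0.00559), and Rxrg had 7 counts in all. The within-mouse log2 ratio of Vdr was lower than that of Rxra by an average of 0.147 (written as Vdr minus Rxra, −0.15 ± 0.18, SD), in 7 of 8 mice (exact permutation test, p = 0.0391, adjusted p = 0.0391). That difference rested on few mice. It was −0.091 without mouse 1, and leaving out any mouse other than mouse 3 raised the adjusted p to between 0.0625 and 0.0781.

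**Figure D3:**
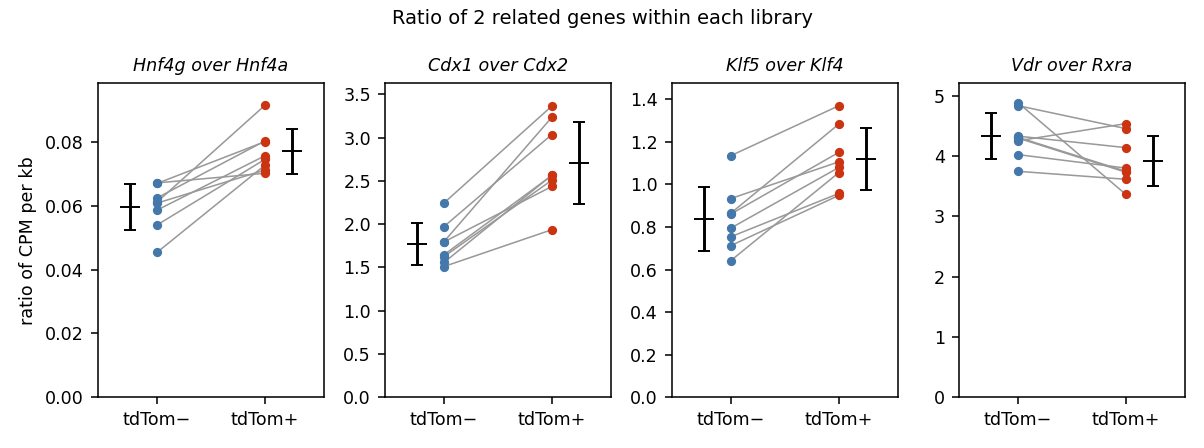
Ratio of the per-length levels (CPM per kilobase of exon) of 4 gene pairs within each library, in tdTom− (blue) and tdTom+ (red) samples, with a line per mouse and mean ± SD. Hnf4g over Hnf4a, Cdx1 over Cdx2 and Klf5 over Klf4 rise in 8 of 8 mice, and Vdr over Rxra falls in 7.

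Klf5 (ENSMUSG00000005148, chromosome 14, 99298691 to 99313405, plus strand), a Kruppel-like factor of proliferating crypt cells, was at 216 to 274 CPM in tdTom− cells (median 253) and at 246 to 287 CPM in tdTom+ cells (median 260). The ranges overlapped, and tdTom+ was the higher in 6 mice, most clearly in mouse 1, with 279 against 216 CPM. The log2 fold change of 0.07 did not pass the test (95% interval −0.05 to 0.20, adjusted p = 0.299 by edgeR). Klf4, a factor of differentiated epithelium and of goblet cell maturation, fell by 0.36 (adjusted p = 0.00281), and the log2 ratio of Klf5 exceeded that of Klf4 by 0.43 ± 0.16 (SD) in 8 of 8 mice (exact permutation test, p = 0.0078, adjusted p = 0.0104). Of the 8 other Kruppel-like factors examined, Klf3, Klf4 and Klf6 were lower in tdTom+ cells and Klf9 and Klf15 were higher. The share of all genes tested was 25.5% in each direction. Klf2, Klf10 and Klf13 did not pass. Klf15 had the largest difference, at 3.84 ± 0.679 CPM in tdTom+ cells and 0.855 ± 0.194 CPM in tdTom− cells, a log2 fold change of 2.16 (adjusted p = 1.05e-10).

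Prdm1 (ENSMUSG00000038151, chromosome 10, 44437177 to 44528501, minus strand) encodes a repressor that delays adult enterocyte genes in the suckling gut and also drives plasma cell differentiation. It was the scarcest of the 9 factors in CPM in tdTom− cells. It had 50, 76, 60, 65, 53, 40, 74 and 66 counts in tdTom− samples of mice 1 to 8 and 9, 7, 5, 2, 8, 8, 5 and 9 counts in tdTom+ samples. Its level ran from 1.26 to 4.12 CPM in tdTom− cells and stayed between 0.0954 and 0.507 CPM in tdTom+ cells, without overlap, and the lowest value of both populations was that of mouse 4. The log2 fold change was −3.01 (SE 0.28, 95% interval −3.58 to −2.43, adjusted p = 6.38e-09 by edgeR's quasi-likelihood test). The tdTom+ level was 12.5% of the tdTom− level (95% interval 8.36% to 18.5%).

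Prdm1 is also made by immune cells, whose markers were examined. Ptprc (CD45), a marker of all leukocytes, was lower in tdTom+ cells as well, at 2.17 ± 0.641 against 6.23 ± 1.91 CPM (log2 fold change −1.52, adjusted p = 2.28e-06), and Cd3e and Cd79a had too few counts. Lyz2, a marker of myeloid cells, was at −2.11, lower in 8 of 8 mice, and did not pass (adjusted p = 0.0108), but passed in the paired fit that adds a mouse term (adjusted p = 1.62e-06, both by edgeR). The summed level of the 4 immune markers lay between 1.90 and 5.05 CPM in the tdTom+ population and between 4.39 and 25.9 CPM in the tdTom− population. The plasma cell genes Jchain, Mzb1 and Irf4, chosen after the values of Prdm1 were seen, had too few counts to be tested. Jchain had 70 counts in all in tdTom− samples and 6 in tdTom+ samples, Mzb1 had 4 and 1, and Irf4 had 10 and 0. In single tdTom− samples, Jchain ran from 2 to 26 counts, Mzb1 from 0 to 3 and Irf4 from 0 to 4, and the highest count of each was in mouse 1. These counts are not scaled for depth, which was greatest for the tdTom− sample of mouse 4. In tdTom− samples of mice 1 to 8, Jchain had 26, 2, 9, 16, 3, 6, 4 and 4 counts, and Prdm1 had 50, 76, 60, 65, 53, 40, 74 and 66. The part of immune cells in the result was not tested.

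**Figure D4:**
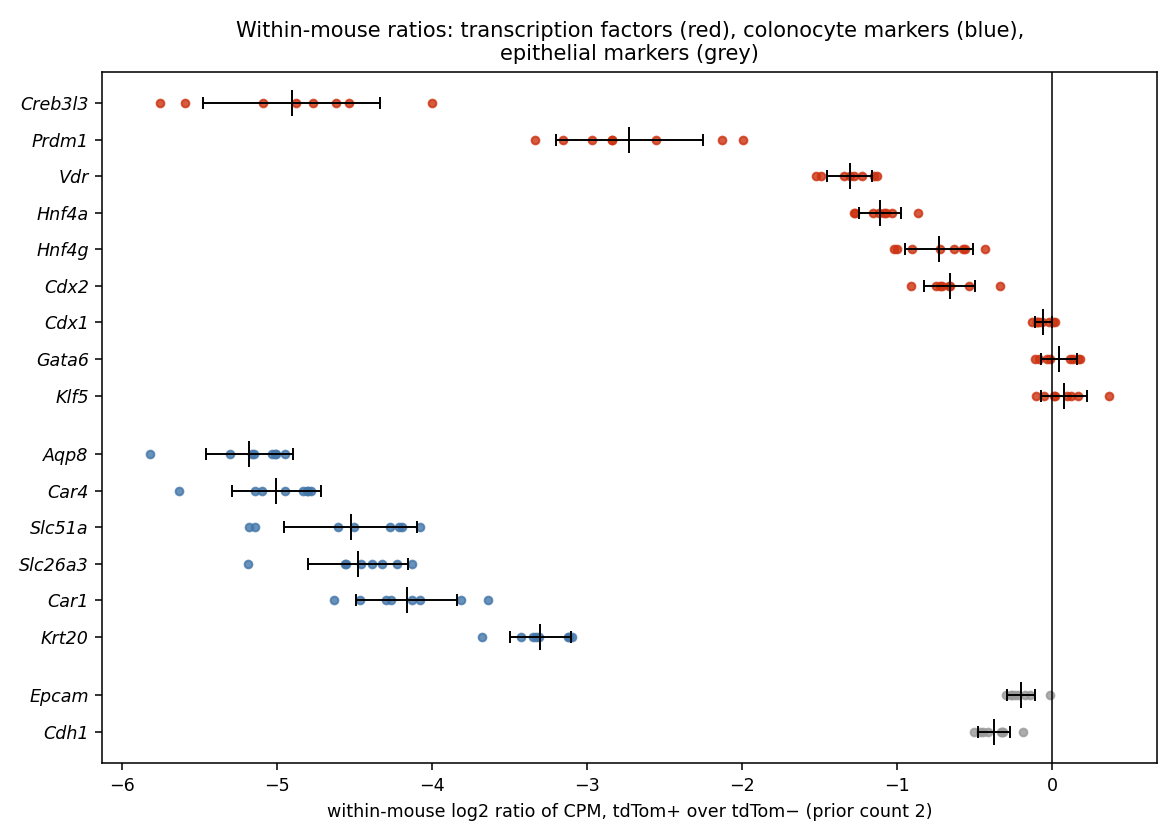
Within-mouse log2 ratio of CPM, tdTom+ over tdTom− (horizontal axis, prior count 2), for the 9 factors (red), the 6 colonocyte markers (blue) and 2 epithelial markers (grey), with 8 points per gene and mean ± SD. Creb3l3 lies among the colonocyte markers and Prdm1 just to their right, whereas Vdr, Hnf4a, Hnf4g and Cdx2 lie between those markers and 0. The prior count shrinks the ratios of Creb3l3 and Prdm1, which had few tdTom+ counts. In the edgeR fit Creb3l3, at −5.38, was below the lowest marker, Aqp8, at −5.18.

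The order of the factors by level also differed between the populations. Per kilobase of exon, Cdx1 and Hnf4a were the most abundant in tdTom− cells, at 194 ± 16.2 and 171 ± 6.60 CPM, with overlapping ranges. Klf5 (145), Cdx2 (111) and Vdr (93.2 CPM per kilobase) followed, each overlapping its neighbour, and then Gata6 (17.4), Hnf4g (10.2), Creb3l3 (3.71) and Prdm1 (0.520), of which only Hnf4g and Creb3l3 overlapped. In tdTom+ cells Cdx1 (186) was followed by Klf5 (153), with no overlap, and Hnf4a (79.4) came next together with Cdx2 (70.7 CPM per kilobase), whose ranges overlapped. Vdr (37.7), Gata6 (18.0) and Hnf4g (6.11) were each apart from their neighbours, and Creb3l3 (0.0882) and Prdm1 (0.0633) overlapped at the bottom of the order.

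As a share of the tdTom− level, the tdTom+ levels of the 6 lower factors differed widely. Hnf4a, Hnf4g, Cdx2 and Vdr were at 40.5% to 63.8%, Prdm1 at 12.5% and Creb3l3 at 2.40%. The 6 colonocyte markers, picked as markers of that cell type, were at 2.77% to 10.2%. The highest of their 95% intervals ended at 12.8% (Krt20). Among Hnf4a, Hnf4g, Cdx2 and Vdr the lowest bound was 36.7%, for Vdr. Within mice 1 to 3 the log2 fold changes were −1.22 for Hnf4a, −0.81 for Hnf4g, −0.62 for Cdx2, −1.43 for Vdr and −2.99 for Prdm1. Within mice 5 to 8 they were −1.09, −0.71, −0.70, −1.25 and −2.97, and every one of these passed the threshold in edgeR's test. Mouse 4, alone in its series, moved the same way for all 5.

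Other regulators of absorptive differentiation were examined as a list of 15 genes, of which 14 had enough counts. None was higher in tdTom+ cells, 11 were lower and 3 did not pass, beside 25.5% of all genes tested in each direction. Their median log2 fold change was −0.67 against 0.0039 for all genes tested. Maf, a bZIP factor of maturing enterocytes, fell by 2.66 (adjusted p = 8.3e-08), from 2.84 ± 1.12 to 0.450 ± 0.201 CPM. Like Creb3l3 and Prdm1, Maf had enough counts to be tested only through the tdTom− samples, so a fall was favoured in advance. The nuclear receptors Ppara, Nr1h4 (the bile acid receptor FXR) and Nr1i2 (the xenobiotic receptor PXR) fell by 1.65, 1.43 and 1.30. Isx, a homeobox repressor of carotenoid uptake, fell by 1.30, and Hes1, the Notch effector that represses Atoh1, fell by 1.08 (adjusted p = 3.17e-08), from 94.0 ± 15.2 to 44.4 ± 8.79 CPM. Rbpj, the DNA-binding partner of Notch, was at 0.05 on the log2 scale and did not pass (adjusted p = 0.456). Onecut2 had 23 counts in all. Among the 20 paralogs and partners of the factors, 18 were tested, 8 were higher, 5 lower and 5 did not pass, with a median of 0.11, beside 25.5% of all genes tested in each direction, the lowest being Gata4 and the highest Creb3l4. Cdx4 had no counts, and with Rxrg it was not tested.

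Known target genes were described by the factor that reads them. The targets of HNF4, a list of 16 brush border and lipid genes, had 13 members with enough counts. All 13 were lower in tdTom+ cells, in 8 of 8 mice each, with a median log2 fold change of −1.56. Of all genes tested, 25.5% were called lower and 26% were lower in 8 of 8 mice. Alpi (intestinal alkaline phosphatase) fell by 4.91, the most of the list, from 37.3 ± 11.3 to 1.21 ± 0.442 CPM (adjusted p = 6.18e-14), and Myo1a, a myosin of microvilli, fell by 0.49, the least (adjusted p = 4.58e-06). Apob, which carries lipid out of enterocytes, fell by 3.59 and Vil1 (villin) by 0.61. Apoa1, Apoc3 and Fabp1, typical of the small intestine, had 291, 31 and 191 counts and were not tested.

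Of 7 genes known as CDX2 targets, 6 were tested, 4 were lower and 1 was higher, beside 25.5% of all genes tested in each direction. Mep1a, a brush border protease, fell by 3.89 (adjusted p = 1.27e-15). Muc2, the goblet mucin, rose by 4.61 (adjusted p = 2.63e-13) and is also one of the goblet markers above. Sis fell by 2.51, Cdh17 by 0.64 and Heph by 0.63, and Cdx2 itself was at −0.65. Gucy2c was at −0.18 and did not pass (adjusted p = 0.0383 by edgeR), and Lct had 42 counts. The 4 vitamin D receptor targets that could be tested were all lower: Slc30a10, a manganese exporter, by 3.96, S100g (calbindin-D9k) by 3.71, Trpv6, the apical calcium channel, by 3.33 and Atp2b1, the basolateral calcium pump, by 2.03. Cyp24a1, a classic vitamin D response gene, had 1 count in all 16 samples. All 4 fell by more than Vdr itself, a difference that was not tested.

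For CREB3L3, 2 of 6 known targets were tested and both were lower. Cidec, a lipid droplet protein, fell by 4.43 (adjusted p = 2.55e-11), from 8.86 ± 3.12 to 0.404 ± 0.206 CPM, and Apoc2 fell by 2.03 (adjusted p = 2.42e-09). Cidec had enough counts to be tested only through the tdTom− samples, so a fall was favoured in advance. Apoa4, Apoa5, Fgf21 and Hamp had 86, 88, 4 and 24 counts. Of the adult enterocyte genes that PRDM1 represses, Arg2 fell by 3.89 and Sis by 2.51, so that both were highest in the tdTom− population, where Prdm1 was highest too, and Treh had 157 counts. The cell cycle genes read by KLF5 changed little. Ccnb1 fell by 0.48 (adjusted p = 0.00376), and Ccnd1 and Cdk1 did not pass, at −0.07 and −0.14. Taking each target once, 29 of 39 were tested, 25 were lower and 1, Muc2, was higher, with a median of −1.83. Over all genes tested, 25.5% were called in each direction. The lists were drawn up from general knowledge with earlier results of these data known, and many of their genes mark mature absorptive cells, whose markers moved with them.

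**Figure D5:**
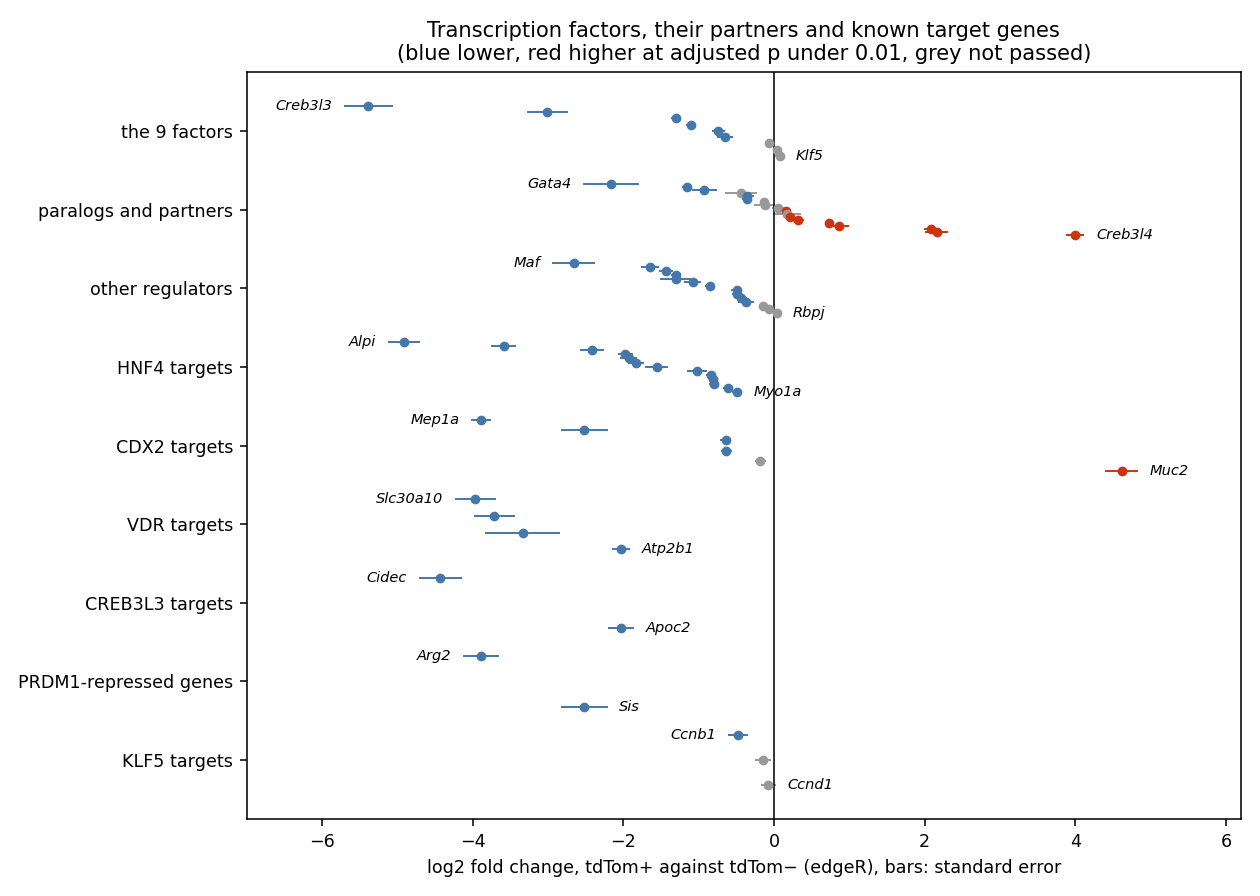
Log2 fold change, tdTom+ against tdTom− (horizontal axis, edgeR, bars are standard errors), for the 9 factors, their paralogs and partners, other regulators and the tested target genes of each factor. Points are blue where lower and red where higher at an adjusted p under 0.01 and grey otherwise, with the lowest and highest gene of each list named: all tested HNF4, VDR and CREB3L3 targets lie below 0.

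For each factor, the genes whose 8 within-mouse log2 ratios lay nearest to its own were sought among 11999 genes with a mean of at least 5 CPM in either population, by the root mean square difference over the 8 mice. Anks4b, a gene of the brush border linker complex, was nearest to Hnf4a, at a distance of 0.051 log2 units, followed by Hsd17b11 at 0.078. Anks4b was at 37.4 ± 3.44 CPM in tdTom+ cells and 82.0 ± 10.4 CPM in tdTom− cells, a log2 fold change of −1.13 against −1.11 for Hnf4a. Tuft1 (0.089) and Prpsap1 (0.093) were nearest to Vdr, Gm12070 (0.081) and Hk1 (0.081) to Cdx2, and Gm10566 (0.11) and Trim2 (0.12) to Hnf4g. For the factors with the largest differences the nearest genes were farther away. Car4, one of the colonocyte markers, was nearest to Creb3l3, at 0.45, with Tpm2 at 0.48, and H2-T3 (0.35) and Nbl1 (0.37) were nearest to Prdm1. Few tdTom+ counts limit these matches, because the prior count of 2 shrinks the within-mouse ratios of Creb3l3 and Prdm1. Car4 had a log2 fold change of −4.98 against −5.38 for Creb3l3, and H2-T3 had −2.69 against −3.01 for Prdm1. Cdx1 was nearest to Maea and Zdhhc3, Gata6 to Siae and Enox2, and Klf5 to Ap2s1 and Tbcd, all with log2 fold changes between −0.05 and 0.09.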

How the data were processed

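The authors sequenced stranded mRNA libraries as single-end reads, aligned them to GRCm38 with TopHat2 (2.1.1 per the labels) and counted reads per gene with featureCounts (Subread 1.5.2 in the processing notes, 1.5.0-p1 in the file headers). They deposited raw counts for 45513 genes, without normalization, separately for each sample, and 44585 received a symbol from GENCODE M21. Populations were tested in R 4.3.3 by edgeR 4.0.16 with glmQLFit and glmQLFTest after filterByExpr and TMM scaling, with population as the only term and an adjusted p under 0.01. Log2 ratios used a prior count of 2, and the 4 pair tests a threshold of 0.05. Both samples of a mouse share a number in the labels: deviations from the population means correlated at 0.22 to 0.41 within mice, and each of 8 mice matched its own partner best. Alternatives were the mouse as a block, DESeq2 1.42.0, limma-voom (limma 3.58.1), other normalizations and filters, and subsets of mice. The fits were tested on simulated counts. Members and lists were chosen with earlier results of these data known. Named genes are the members, their pairs, overlapping and nearest genes, markers, and list extremes with untested members, and further list genes were chosen after their values were seen. No pair of samples agreed within sampling noise. Depth, from 16482530 to 45791503 counts, limits genes near 0. Some genes counted in the lists are not reported here by name.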

Additional observations from a re-analysis of the deposited data

Results flagged for a closer look

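Of 29 groups of 8 samples examined for a single value far from the rest, 3 held one, where chance gives about 1 in 20, or 1.45 groups. The log2 CPM of Prdm1 in the tdTom+ sample of mouse 4 was −2.40, and the other 7 tdTom+ samples were at −1.35 to −0.74. It rests on 2 counts. The log2 CPM of Hnf4g in the tdTom− sample of mouse 1 was 4.27, below the 4.62 to 4.90 of the others, and this sample is the one that meets the tdTom+ range. The total of the tdTom− sample of mouse 4 was 45791503 counts, with the others between 18318172 and 20668605. Without mouse 4, the log2 fold changes of Prdm1 and Creb3l3 were −2.96 and −5.35, both past the threshold.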

How the results depend on the processing

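Of 199 alternative values for single genes and gene pairs, 184 kept their direction and side of the threshold and none reversed. Each of the 9 factors kept its call in every alternative that could be fitted; Creb3l3 and Prdm1 could not be fitted when at least 10 counts were required in every sample, which left 4 factors called lower. With the replicate block (mouse in the model, paired), 4494 genes were higher and 4574 lower, and no factor changed its call. With mice 1 to 3 only, 2546 genes were higher and 2559 lower, fewer samples being compared. The pair differences missed the threshold in the smaller sets of mice, where few exchanges are possible: with mice 1 to 3 only they were 0.44 (Hnf4g minus Hnf4a), 0.64 (Cdx1 minus Cdx2), 0.44 (Klf5 minus Klf4) and −0.22 (Vdr minus Rxra), and with mice 5 to 8 only 0.37, 0.62, 0.45 and −0.080. Leaving out one mouse at a time, Vdr minus Rxra ran from −0.18 to −0.091. Low counts limit Creb3l3 and Prdm1 in tdTom+ cells.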
